A study of Caenorhabditis elegans with 4 samples.

Results

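The HDA-1 peaks on the right arm of chromosome V of Caenorhabditis elegans are the peaks whose midpoint lies above 15693112 bp on the WS220 build, the outer 25% of the chromosome up to 20924149 bp, where the last peak ends. Position alone sets which peaks belong, but the region itself was chosen with earlier results of these data known. The whole-series list placed 398 of its 14199 peaks there (2.80%), replicate 1 placed 270 of 11762 (2.30%) and replicate 2 placed 354 of 9901 (3.58%). They come from chromatin immunoprecipitation with sequencing (ChIP-seq) of worms of N2, the usual wild-type strain, kept at 20 °C and collected from liquid culture as L3 larvae. Each sample was a mixed population of males and hermaphrodites, with no mutation and no treatment, so any tissue of the larva may contribute to a peak. The series has 2 ChIP libraries, both made with a rabbit polyclonal antibody to HDA-1 that had been affinity-purified, and 2 input DNA libraries, which were not analysed here. The protein crosslinker EGS was applied for 20 minutes and formaldehyde with it for 10 more. EGS joins proteins to one another over longer distances than formaldehyde does, and HDA-1 bound through a partner can therefore be recovered.

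The worm's HDA-1 belongs to the class I deacetylases and is related to mammalian HDAC1 and HDAC2. It takes acetyl groups off histone tails within complexes such as NuRD and SIN3, which are best known for repressing transcription and which transcription factors bring to their sites. The arms of worm autosomes recombine often, carry many repeats and much histone H3 lysine 9 methylation, and hold large, young gene families. Chromosome V is the main home of the chemoreceptor families, membrane receptors that sensory neurons use to detect odours. In RefSeq's gene table of the WBcel235 assembly, used for names and chromosomes only, 888 of the 1308 protein-coding genes with a chemoreceptor family symbol (67.9%) were on V. That table is of another build, so no peak was assigned to a gene and no sequence under a peak is shown.

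The data are positions and scores of peaks, with no read counts, so the depth behind a site is unknown. The score is the authors' own, and no source used here says what it measures. It runs from 1.31 to 87.72 in the whole-series list, up to 139.54 in replicate 1 and up to 115.82 in replicate 2. Peaks are ranked by it within a list. Scores of different lists are given side by side below, but they may not share a scale. With 2 replicates both values are given. The labels do not state if separate cultures gave the replicates. All intervals are exact, at 95%, and count only the error of counting. Tests below count peaks, which lie in groups and are not independent. Their p-values are therefore too small and say nothing of the spread between cultures.

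HDA-1 peaks were sparse on the right arm of V. The whole-series list held 76.1 peaks per Mb there (interval 68.8 to 83.9), replicate 1 held 51.6 (45.6 to 58.2) and replicate 2 held 67.7 (60.8 to 75.1). The left arm of V, of the same length, held 101 peaks per Mb in the whole-series list, 69.2 in replicate 1 and 74.9 in replicate 2. The 8 arms of chromosomes I to IV together held 148, 110 and 115 peaks per Mb in the same 3 lists. Peak sequence covered 2.25% of the right arm of V, against 3.05% of the left arm and 4.75% of the 8 other arms in the whole-series list.

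Against the left arm, the deficit held in the whole-series list, where the right arm had 0.76 times the density (interval 0.66 to 0.86, exact two-sided binomial test, adjusted p = 4.29e-05 over 6 tests). It also held in replicate 1, at 0.75 times (0.635 to 0.876, adjusted exact p = 0.000346). Replicate 2 did not pass, at 0.90 times (0.78 to 1.05, adjusted exact p = 0.175). Against the 8 arms of I to IV the ratio was 0.51 in the whole-series list, 0.47 in replicate 1 and 0.59 in replicate 2, and the highest adjusted p of these 3 exact binomial tests was 2.20e-24. The difference between the arms of V thus passed in 1 of the 2 replicates, and that from the arms of I to IV passed in both. The 8 pooled arms themselves ran from 86.4 (right arm of IV) to 192 (right arm of II) peaks per Mb in the whole-series list. The tests do not count that spread.

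Among the 10 autosome arms the right arm of V had the lowest density in the whole-series list and in replicate 1. In replicate 2 the right arm of IV was lower, at 64.5 peaks per Mb (57.2 to 72.5), although its interval overlaps that of V right. The right arm of IV was also the next in order in the whole-series list, at 86.4 peaks per Mb (77.9 to 95.6), again with overlapping intervals. In replicate 1 the same arm held 68.8 (61.3 to 77.1), and the 2 intervals did not overlap. The densest arm, the right arm of II, held 192 peaks per Mb in the whole-series list. With arms as units, 1 arm among 10 cannot give an exact p below 0.1, so this order is a description.

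**Figure D1:**
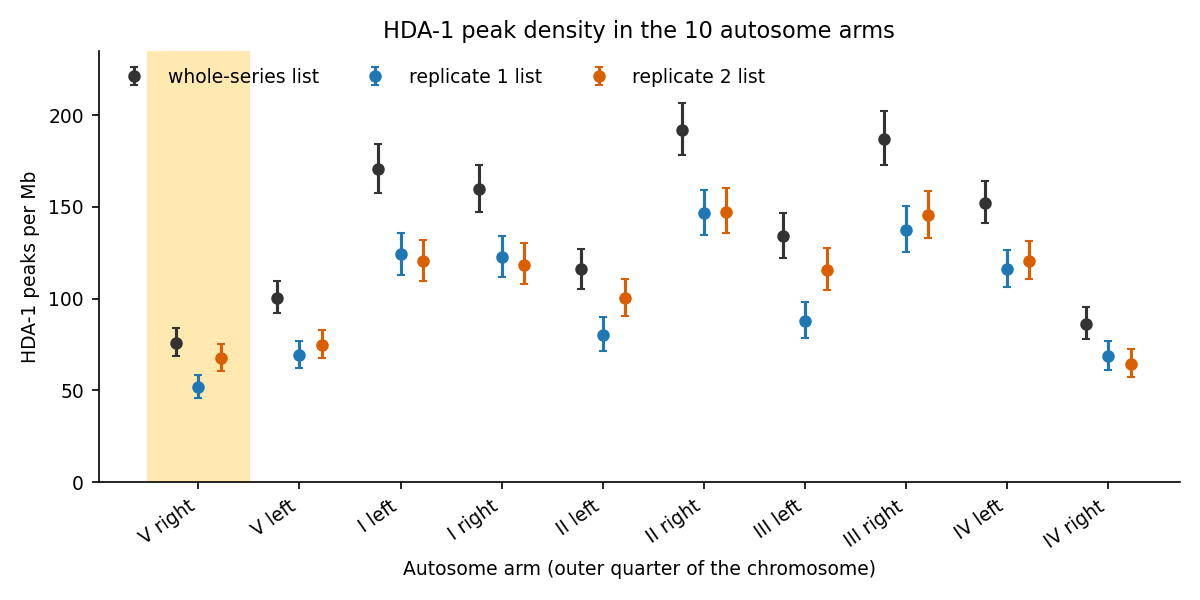
Peaks per Mb in the outer 25% at each end of the 5 autosomes, for the whole-series list and both replicate lists. Points are densities and bars are exact 95% counting intervals. The right arm of V (shaded) holds 76.1, 51.6 and 67.7 peaks per Mb, and only the right arm of IV is lower in replicate 2, at 64.5.

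The peaks that were present thickened toward the end of the chromosome. The arm was divided into 3 stretches of 1.74 Mb, a division chosen after the values were seen. In the whole-series list the outer stretch, next to the chromosome end, held 192 peaks (110 per Mb), the middle stretch 120 (68.8 per Mb) and the inner stretch 86 (49.3 per Mb). Replicate 1 placed 135 peaks in the outer stretch, 70 in the middle and 65 in the inner. Replicate 2 placed 160, 124 and 70 in the same order. The outer stretch was therefore the richest and the inner the poorest in all 3 lists. The log2 ratio of outer to inner density was 1.16 in the whole-series list, 1.05 in replicate 1 and 1.19 in replicate 2.

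None of the other 9 autosome arms had as high a ratio of outer to inner density. The next highest was 0.16 on the right arm of IV in the whole-series list, 0.072 on the left arm of II in replicate 1 and 0.38 on the right arm of IV in replicate 2. The left arm of V had -0.0082 in the whole-series list. The low inner stretch did not continue into the chromosome centre. The 1.74 Mb just before the arm begins held 112 peaks per Mb in the whole-series list, 99.2 in replicate 1 and 83.2 in replicate 2. Density along V thus had a trough in the inner part of the arm, between richer sequence on both sides. The ratio depends on where the arm begins: with the arm as the outer 33.3% of V, whose inner stretch reaches into the richer centre, it was 0.125.

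In bins of 250 kb the density along the arm was uneven. The whole-series list held 7 to 40 peaks per bin over 21 bins, with a median of 17. The sparsest bin ran from 16943113 to 17193112 with 7 peaks in the whole-series list, 4 in replicate 1 and 7 in replicate 2. Next came the bin from 18193113 to 18443112 with 8 whole-series peaks (4 and 8 in the replicates), and that from 16443113 to 16693112 with 10 (11 and 8). The densest was the last, shorter bin of 231 kb at the chromosome end, from 20693113, where the whole-series list had 40 peaks, replicate 1 had 36 and replicate 2 had 22. The bin from 19443113 to 19693112 held 36, with 21 and 36 in the replicates. The bin from 20193113 to 20443112 held 35, with 24 and 25.

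The replicates placed different numbers of peaks along much of the arm. Replicate 2 had more peaks than replicate 1 in 16 of the 21 bins and fewer in 5. Over the whole arm the ratio of replicate 2 to replicate 1 peaks was 1.31, against 1.08 on the left arm of V, 1.05 over the 8 other arms and 0.84 in the lists as a whole. The left arm of III had the same ratio, 1.31. The excess of replicate 2 was largest in the middle stretch, at 1.77, and smaller in the outer (1.19) and inner (1.08) stretches. Middle stretches of the other 9 autosome arms ran from 0.86 (right arm of I) to 1.75 (left arm of II), with 1.56 on the left arm of III. The bin from 17193113 to 17443112 held 1 replicate 1 peak and 8 replicate 2 peaks. At the chromosome end the order turned round, as the last bin shows.

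**Figure D2:**
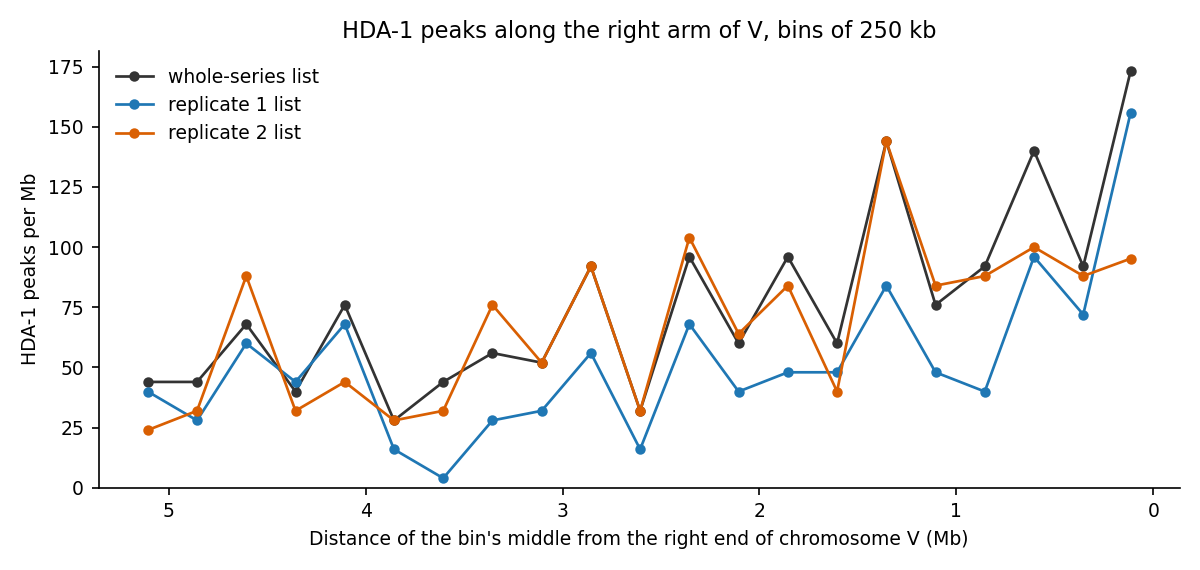
Peaks per Mb in bins of 250 kb (the last of 231 kb) along the right arm of V, plotted by distance from the chromosome end, with 1 line per list. The last 1.74 Mb is the densest stretch in each list, at 110, 77.4 and 91.8 peaks per Mb, and replicate 2 lies above replicate 1 in 16 of 21 bins.

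Spacing was wide. The median distance from one whole-series peak to the next was 4725 bp on the right arm of V, 2799 bp on the left arm and 1998 bp over the 8 other arms. In replicate 1 these medians were 6299, 4757 and 2909 bp, and in replicate 2 they were 6337, 4348 and 2912.5 bp. On the right arm of V, 27 whole-series gaps of more than 50 kb made up 36.7% of the length. The left arm had 14 such gaps and 21.4%, and the 8 other arms had 49 gaps and 11.0%. Among those 8, the right arm of IV had 27.9%. In replicate 1 the share was 49.4% on V right, 39.1% on V left, 41.6% on the right arm of IV and 18.7% over the 8 arms. In replicate 2 it was 38.5%, 32.9%, 40.8% and 18.1% in the same order, so V right was not the highest there. No other whole-series peak lay within 10 kb for 59 of the 398 members (14.8%), against 52 of the 526 peaks on the left arm (9.89%), a difference that was not tested.

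Of the 5 longest whole-series gaps, 3 lay in the inner stretch of the arm, 1 in the middle and 1 in the outer. The longest whole-series gap was 105 kb, from 16120596 to 16225651, and it held 1 replicate 2 peak (score 8.63) and no replicate 1 peak. The next ran from 15900757 to 16000462 (99.7 kb) with 2 replicate 1 peaks and no replicate 2 peak, and from 16401836 to 16499083 (97.2 kb) with 1 replicate 2 peak. A gap of 94.3 kb from 17725442 to 17819787 held 1 replicate 2 peak, and one of 89.2 kb from 19771154 to 19860309 held 1 peak of each replicate. Each of these 5 gaps held a peak of at least 1 replicate, and the best score among those peaks was 8.63.

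Replicate 1 alone had a far longer empty stretch. It had no peak for 304 kb, from 17210503 to 17514442, where the whole-series list had 9 peaks with scores up to 11.25 and replicate 2 had 8 with scores up to 15.59. Its next longest gap, 192 kb from 16966946 to 17159304, held 3 replicate 2 peaks. The longest gap of replicate 2 was 142 kb, from 15880856 to 16022728, and held 5 replicate 1 peaks. Peaks of all 3 lists combined left 89.7 kb empty from 16120596 to 16210328, 83.8 kb from 15916647 to 16000458 and 75.7 kb from 20304628 to 20380354. In that combination 18 stretches of over 50 kb remained, 22.3% of the arm.

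**Figure D3:**
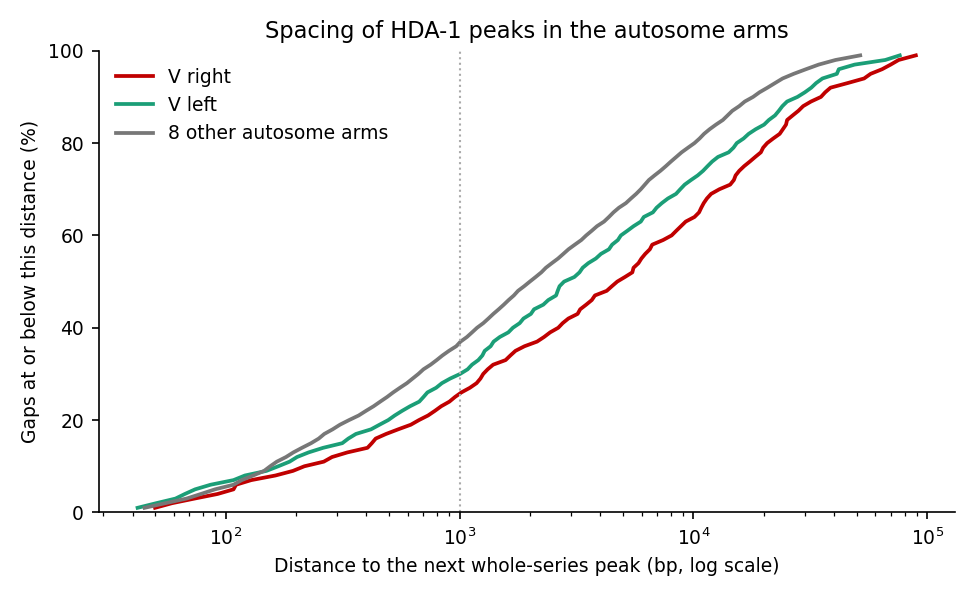
Share of gaps at or below a given distance between neighbouring whole-series peaks (bp, log axis) on the right arm of V, on its left arm and on the 8 other autosome arms, with 1 kb dotted. The curve of V right lies to the right of both others at each percentile from 1 to 99, with a median of 4725 bp against 2799 and 1998 bp.

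The share of close neighbours was not shown to differ from that of the left arm. Of the gaps on the right arm of V, 102 of 397 (25.7%, interval 21.5 to 30.3%) were under 1 kb, against 157 of 525 (29.9%, 26.0 to 34.0%) on the left arm. The difference of -4.21 points did not pass (Fisher's exact test, two-sided adjusted p = 0.299 over 13 tests of shares). Over all chromosomes 35.4% of gaps were under 1 kb. Joining neighbours less than 1 kb apart gave 61 runs with 163 of the 398 peaks (41.0%), against 47.7% of the peaks on the left arm and 55.9% on the 8 other arms. Most runs were pairs (38 of 61), and 9 held 4 peaks or more.

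The largest run had 8 whole-series peaks within 5189 bp, from 20415159 to 20420347, about 0.506 Mb from the chromosome end. It held 7 replicate 1 peaks and 3 replicate 2 peaks, and 3 of its 8 peaks were found in both. The run from 16592162 to 16595631 held 7 peaks, 5 in replicate 1 and 3 in replicate 2. A run of 6 peaks from 19513954 to 19518669 was weak, with scores of 1.31 to 8.20, and none of its peaks was found in both replicates. The longest of the runs of 4 lay from 20776666 to 20780207 (4 and 3 replicate peaks) and from 18722956 to 18726228 (1 and 4), and the other runs of 4 were shorter. Of the 61 runs, 45 held peaks of both replicates, 8 of replicate 1 only and 8 of replicate 2 only. Peaks in runs were found in both replicates in 41.7% of cases (34.1 to 49.7%), against 28.5% (22.8 to 34.7%) for peaks outside runs. In the run beginning at 16592162, 3 peaks were found in both replicates and 4 in replicate 1 only, over 5 replicate 1 peaks. At least 1 replicate 1 peak there thus spanned more than 1 whole-series peak. Other runs may also hold 1 site called in pieces, which was not tested.

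The 10 best-scoring members found in both replicates ranked from 201 to 715 in the whole-series list. The arm's best whole-series score was 58.41, at rank 201, and the left arm and each of the 8 others had a higher one, up to 87.72. Of the 398 members 34 (8.54%) were among the best-scoring 10% of the whole-series list, against 8.37% on the left arm and 9.57% on the 8 other arms. In the replicates the shares were 8.89% (replicate 1) and 7.06% (replicate 2). The median score was 8.40 on the right arm of V, 7.69 on its left arm and 9.04 on the 8 other arms. Scores were not compared by a test.

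The best-scoring site found in both replicates lay from 19770857 to 19771153, was 297 bp wide and scored 74.46 in replicate 1 (rank 178) and 58.29 in replicate 2 (rank 144). It bounds the 89.2 kb gap named above. The peak from 17519190 to 17519458 scored 80.65 in replicate 1 (rank 131), the highest there on the arm, and 59.17 in replicate 2 (rank 137). It stands near the right end of the 304 kb without replicate 1 peaks. The peak from 19874219 to 19874493 scored 77.79 and 50.48 in replicates 1 and 2. The peak from 16355731 to 16356249 scored 73.49 and 64.77 (ranks 192 and 100). These 4 sites lay within the best 239 ranks of both libraries.

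Some of the others ranked less alike. The peak from 17857785 to 17858460 had a score of 40.62 in replicate 1 (rank 969) and 74.11 in replicate 2 (rank 61), the arm's best in that list, where 2 peaks covered it. The peak from 18967663 to 18967914 scored 50.15 in replicate 1 (rank 583) and 18.20 in replicate 2 (rank 1833). The other members of the 10 strongest began at 17210230, 17951136, 19620110 and 19643037. Their replicate 1 ranks ran from 168 to 888 and their replicate 2 ranks from 334 to 923. The 10 were 252 to 722 bp wide, and 5 had another whole-series peak within 1 kb. The nearest neighbour of each of the 10 was at most 4351 bp away. The peak beginning at 17210230 borders the 304 kb gap on its left.

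The widest members differed in score. The widest, 1765 bp from 17944701 to 17946465, scored 34.04 in the whole-series list and covered 3 replicate 1 peaks and 1 replicate 2 peak. The next were 1265 bp wide from 19049484 to 19050748 (score 18.33) and 1118 bp wide from 16356651 to 16357768 (score 12.82). The peak from 16356651 lies 401 bp from one of the 10 strongest. Peaks of 983 bp and 924 bp began at 17870366 and 19643618 and scored 34.37 and 36.08. All 5 overlapped both replicates. The median width was 230 bp in the whole-series list, 244.5 bp in replicate 1 and 200.5 bp in replicate 2, against 228, 230.5 and 206 bp on the left arm of V.

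The share of members found in both replicates was not shown to differ from either comparison after adjustment. Of the 398 members 135 (33.9%, interval 29.3 to 38.8%) overlapped a peak of both replicates by at least 1 bp, where 41.9% of all whole-series peaks did. A further 83 (20.9%) overlapped replicate 1 only, with 28.9% over the series, and 115 (28.9%) replicate 2 only, with 18% over the series. The other 65 (16.3%) overlapped neither, with 11.2% over the series. On the left arm of V 171 of 526 (32.5%) were found in both, a difference of 1.41 points (Fisher's exact test, two-sided adjusted p = 0.728). On the 8 other arms 1817 of 4568 (39.8%) were, a difference of -5.86 points (exact p = 0.0215, adjusted p = 0.0698), which did not pass.

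Among peaks found in just 1 replicate, 115 of 198 (58.1%) came from replicate 2 on the right arm of V, against 149 of 281 (53.0%) on the left arm and 1192 of 2214 (53.8%) on the 8 other arms. Neither difference passed (Fisher's exact test, adjusted p = 0.397 and 0.382). The differences were 5.06 and 4.24 points. Over the whole series the order was reversed, with 2549 such peaks from replicate 2 and 4109 from replicate 1. On the right arm of V the replicate 2 share was 68.9% in the middle stretch and 51.1% in the outer one. Middle stretches of the other 9 autosome arms ran from 37.6% (right arm of I) to 77.3% (left arm of II).

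**Figure D4:**
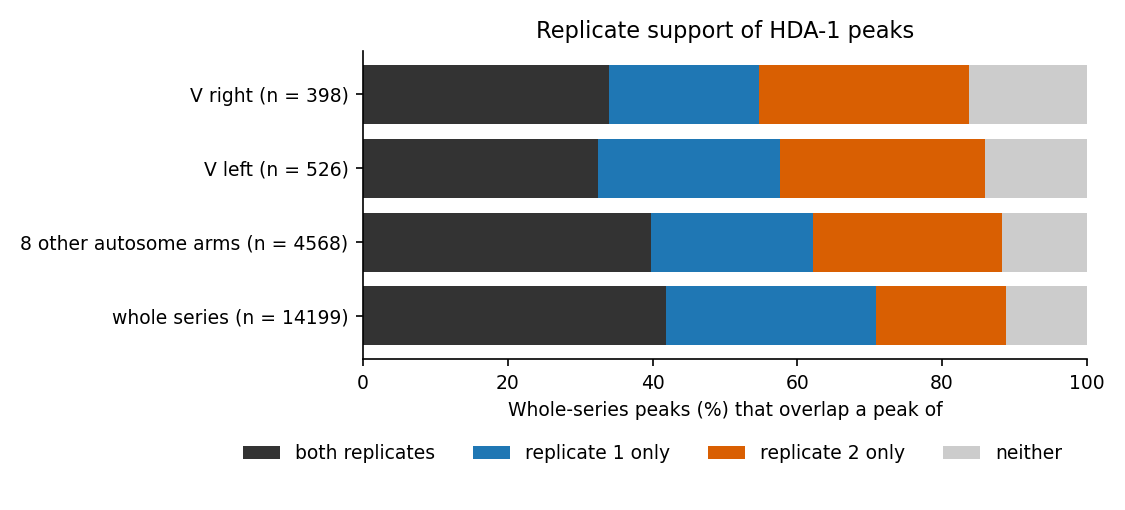
Share of whole-series peaks (%) that overlap a peak of both replicates, of replicate 1 only, of replicate 2 only or of neither, on the right arm of V, its left arm, the 8 other autosome arms and in the whole series. V right has 33.9% in both and 28.9% in replicate 2 only, against 41.9% and 18% over the series.

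Better-scoring members were found in both replicates more often, as on the other arms. If the whole-series list was built from the same 2 libraries, its score and this support are not independent. No source used here states how it was built, and these shares were not tested. Among members in the best-scoring 25% of the whole-series list (scores of 17.52 or more), 72 of 81 (88.9%, interval 80.0 to 94.8%) were found in both replicates, against 92.7% on the left arm and 94.1% on the 8 other arms. In the next 25% 44 of 94 (46.8%) were, against 47.4% and 48.0%. In the one below it 18 of 118 (15.3%) were, against 9.15% on the left arm and 16.2% on the 8 other arms. In the lowest 25% 1 of 105 (0.952%) was, against 3.47% and 4.25%. The median score was 18.89 for members found in both and 4.93 for members found in neither, and their median widths were 347 and 166 bp.

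Some high-scoring members rested on 1 library. The peak from 18614545 to 18614818 scored 43.15 in the whole-series list and 59.21 in replicate 1 (rank 362) and had no replicate 2 peak. It was number 3 by score among the 4109 whole-series peaks of the genome found in replicate 1 only, and the nearest replicate 2 peak lay 7775 bp away. The next replicate 1 peaks of this kind, beginning at 15880941 and 20711735, scored 18.08 and 17.80 in the whole-series list. In the other direction, the peak from 19728049 to 19728258 scored 28.88, with 36.62 in replicate 2 (rank 554), and had no replicate 1 peak. The peaks beginning at 20423196 and 20061584 scored 21.25 and 20.77 and were likewise in replicate 2 only. The best-scoring member found in neither replicate, from 17595763 to 17595945, scored 11.20, and the one from 19917385 to 19917536 scored 10.49. The next, beginning at 19610855, scored 9.40, as did those beginning at 20505448 and 20852091.

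Replicate 2 peaks of this arm were found in replicate 1 less often than those of the arms of I to IV. In replicate 2, 144 of its 354 peaks (40.7%, interval 35.5 to 46.0%) overlapped a replicate 1 peak, where 65.2% of all replicate 2 peaks did. This was the lowest share of 18 regions, the 12 arms and 6 centres of the chromosomes, X included. The other 11 arms ran from 47.7% to 65.2% and the centres from 74.5% to 80.1%. The share was 14.4 points below that of the 8 arms of I to IV (55.1%, Fisher's exact test, adjusted p = 1.56e-06 over 13 tests). Against the left arm of V (47.7%) the difference of -7.03 points did not pass (adjusted exact p = 0.144). These comparisons were added after the data were seen.

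The whole-series list also lacked many of them. Of the 354 replicate 2 peaks, 89 (25.1%, interval 20.7 to 30.0%) overlapped no whole-series peak, where 8.10% of all replicate 2 peaks overlapped none. The share was 14.3% on the left arm of V (Fisher's exact test, adjusted p = 0.000879) and 10.5% on the 8 other arms (adjusted p = 2.24e-12 by the same exact test). The other 11 arms had 6.82% to 16.3% and the centres 3.23% to 5.66%. The 89 peaks were narrow and mostly weak, with a median width of 161 bp and a median score of 5.89, and 18 of them lay in the better-scoring 50% of replicate 2. The best of them lay from 18049507 to 18049667 (score 15.78, rank 2215) and from 18057890 to 18058040 (score 14.27). Their median distance to the nearest whole-series peak was 3838 bp, and none was found in replicate 1. The 89 peaks thus also lower the share found in replicate 1, and the 2 results are not independent. The difference from the left arm no longer passed with midpoints within 100 bp (4.84 points, exact p = 0.157) or in the better-scoring 50% of each list (8.37 points, exact p = 0.0844). These comparisons too were added after the data were seen, for the arm with the highest such share of the 18 regions. No source used here states how the authors built the whole-series list.

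For replicate 1 no such difference passed the test, in comparisons likewise added after the data were seen. Of its 270 peaks on the arm 138 (51.1%, 45.0 to 57.2%) overlapped a replicate 2 peak, close to the 51.5% of all replicate 1 peaks. The left arm had 48.1% (Fisher's exact test, adjusted p = 0.555) and the 8 other arms 55.3% (adjusted exact p = 0.331). The whole-series list lacked 50 of the 270 (18.5%), against 17.7% on the left arm (adjusted exact p = 0.835) and 14.5% on the 8 other arms (adjusted exact p = 0.162). The whole-series list lacked 14.3% of all replicate 1 peaks, and the other 17 regions ran from 11.2% to 17.8%. Whether the difference between the libraries reflects depth or background was not tested, since neither read counts nor inputs were analysed here.

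**Figure D5:**
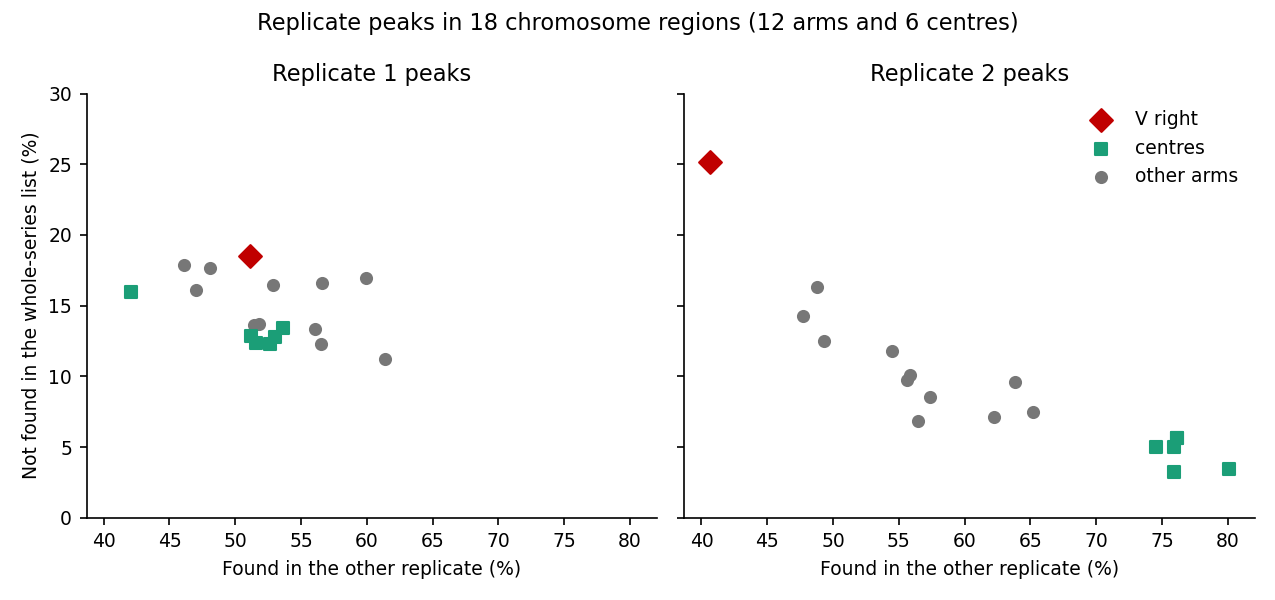
Share of replicate peaks (%) found in the other replicate (x axis) and not found in the whole-series list (y axis) in 18 chromosome regions, replicate 1 at left and replicate 2 at right. In replicate 2 the right arm of V (diamond) stands at 40.7% and 25.1%, apart from the other 17 regions. In replicate 1 it lies among them on the x axis, at 51.1%.

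The arm held 135 pairs of replicate peaks in which each was the other's best overlap, with a median distance of 31.5 bp between midpoints. Choosing pairs by overlap keeps this distance small. Their scores correlated with a Spearman rho of 0.50, against 0.59 over 172 pairs of the left arm and 0.54 over 1815 pairs of the 8 other arms. These are descriptions across sites of the same 2 libraries. The median score of the pairs was 13.72 in replicate 1 and 11.73 in replicate 2.

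The boundary of the arm did not cut through a group of peaks. It fell in a gap of 73179 bp between whole-series peaks. The nearest peaks inside began at 15737538 (score 3.61, replicate 2 only), 15767411 (score 16.72, both replicates) and 15770943 (score 2.65, neither). The nearest outside began at 15664008 (score 14.89, both replicates), 15663100 (score 2.46, neither) and 15661612 (score 3.63, replicate 1 only).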

How the data were processed

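Peak lists of 2 HDA-1 ChIP-seq libraries and of the whole series were used as deposited by the authors, with 1 score per peak. Per the file headers, peaks came from MACS and coordinates are on WormBase WS220. Per the submitters' processing notes, BWA and ce10 were used. No source used here gives the MACS version, threshold, control library or filters, which can set how long a list is. The depth per sample is unknown.

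Arms were the outer 25% of the largest peak end per chromosome. Peaks were called shared at an overlap of at least 1 bp. Densities were compared by exact binomial tests against length (6 tests) and shares by Fisher's exact test (13 tests, 8 of them added after the data were seen), with Benjamini-Hochberg adjustment within each set and a threshold of 0.05. Intervals are Clopper-Pearson for shares and exact Poisson for densities. Scores, widths and rank agreement are described without a test. The code was tested on simulated lists.

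The region and its lists were chosen with earlier results of these data known. The peaks, gaps, runs and bins named were set by a rule: the 10 strongest found in both replicates, the 3 strongest of each other class, the 5 widest, the 5 longest gaps, 3 empty stretches and 5 runs with the most peaks (ties by span), the 3 densest and 3 sparsest bins, and the 3 nearest peaks on each side of the boundary. The replicate gaps, the bin from 17193113, the 2 replicate 2 peaks missing from the whole-series list and the 3 stretches of the arm were chosen after their values were seen. Alternatives covered the overlap rule, score cuts, the width of the arm, merging and each replicate alone. The work was done with SciPy 1.17.1, pandas 2.3.3 and NumPy 2.4.6 under Python 3.11.15, and plots with matplotlib 3.10.9.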

Additional observations from a re-analysis of the deposited data

How the results depend on the processing

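Of 89 alternative values, 71 kept their direction and their side of an unadjusted p of 0.05, or moved by no more than a set limit where untested. That limit was the spread between replicates, or a fixed one for the rank agreement. The 71 include results that did not pass and still did not. Another 7 no longer passed at that p, 2 newly passed, 6 moved by more than the limit and 3 reversed. The cause of these changes was not tested except where the setting itself shows it. The log2 density ratio to the arms of I to IV passed under all 6 alternatives, from -1.13 to -0.732. The ratio to the left arm of V ranged from -0.423 (replicate 1 alone) to -0.147 (replicate 2 alone, p = 0.175 by the exact test), so without replicate 1 it did not pass. The share of close gaps differed from the left arm by -6.59 points when gaps under 2 kb were counted (exact p = 0.0490). The median score was 8.395 in replicate 1 and 7.905 in replicate 2.

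The log2 ratio of outer to inner density ranged from 1.05 to 1.19 in the replicates alone. It was 1.49 in the better-scoring 50%, 0.973 with arms of 20%, 0.898 with the arm divided in 2, and 0.125 with arms of 33.3%, whose inner stretch reaches into the richer centre. The share found in both replicates differed from the left arm by -0.645 points after merging, a reversal. Against the arms of I to IV it differed by -2.89 points with arms of 33.3%, -2.90 with midpoints within 100 bp, -1.71 in the better-scoring 50% of each list and -3.87 with replicate lists limited to their best 5000 peaks, and no longer passed in these 4. After merging the difference was -11.5 points (unadjusted exact p = 0.000187), and with arms of 20% it was -7.12 points (unadjusted exact p = 0.00937). The replicate 2 share of single-replicate peaks reversed in the better-scoring 50%, to -3.84 points against the left arm and -5.55 against the other arms. Against the left arm, replicate 2 peaks found in replicate 1 newly passed at -7.73 points with an overlap of 50% of the shorter peak. Those missing from the whole-series list no longer passed at 4.84 points (midpoints within 100 bp) and 8.37 points (better-scoring 50%). Both replicate 2 results against the arms of I to IV passed under all 7 alternatives, with exact p up to 0.015. No paired analysis was possible because the only groups with shared replicate numbers are ChIP and input, and no input values were used.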

Other observations

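The last 250 kb at the right end of V differed from the rest of the arm in which replicate its single-replicate peaks came from, a stretch singled out after its values were seen. It held 41 whole-series peaks, of which 18 were found in both replicates, 14 in replicate 1 only, 1 in replicate 2 only and 8 in neither. The right end of IV had 11 in replicate 1 only and 2 in replicate 2 only, and the right end of I had 17 and 6. The left end of V had 6 and 11, and the left end of III had 6 and 16. Of the 10 autosome ends, the right end of V was thus the one with the fewest replicate 2 only peaks, and this difference was not tested.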
